A study of Mus musculus with 21 samples.

Results

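Gene expression was compared between 3 libraries of apical spiral ganglion neurons that carried a truncated SK3 channel and 4 libraries of apical control neurons. The 7 libraries were chosen by their titles from the 21 of the series, and every gene that passed a filter on low counts was tested. Each library held about 50 neurons, drawn up by micropipette from the mouse cochlea at postnatal day 7, and its polyadenylated RNA was copied by Smart-seq2. All animals of the groups used here had received an adeno-associated virus (AAV). It carried EGFP in the control group (genotype labelled WT), a truncated SK3 channel in the truncated SK3 group (genotype labelled dominant-negative effect of mSK3) and a site-mutated HCN2 channel in the DN-mHCN2 group, here DN-HCN2. The promoter of the virus, the serotype, the time of injection and the number of animals per library are not given in the sources used here. Libraries of a group are labelled as biological replicates, but their animals are not named, so p-values measure only the spread between these libraries, which may be technical.

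Kcnn3 encodes SK3, which opens when calcium rises inside the cell and lets potassium out, and so shortens or ends a burst of action potentials. A truncated subunit can join the tetramer and trap it in a form that carries no current, which is what dominant-negative means here. Before hearing begins, bursts of spontaneous activity travel from the cochlea along spiral ganglion neurons, which connect inner hair cells to the brainstem. The series asked which genes of these neurons respond when that patterned activity is altered, and the apex is the end of the cochlea that encodes low sound frequencies.

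Library totals ran from 12387384 to 14515698 counts in control apex and from 10727194 to 13578107 in truncated SK3 apex. Levels are given as CPM, a gene's counts relative to the library total after scaling with TMM factors (edgeR's cpm). The Spearman correlation over genes was 0.963 to 0.968 between control apex libraries, 0.904 to 0.941 between truncated SK3 apex libraries and 0.918 to 0.955 between libraries of the 2 groups. The truncated SK3 libraries thus differed more among themselves than the controls did. The summed level of spiral ganglion neuron markers was 12699 to 14169 CPM in control and 10028 to 13049 CPM in truncated SK3. Both groups held high levels of the neuronal markers, but truncated SK3 libraries 1 and 2, at 10028 and 11488.5 CPM, lay below every control library. Both groups also held markers of the glia that wrap these neurons.

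The gene that encodes SK3 was nearly silent in every library. Kcnn3 (chromosome 3, 89520164 to 89675132, GRCm38) was at 0, 0, 0.203 and 0.417 CPM in the 4 control apex libraries and at 1.14, 0 and 1.94 CPM in the 3 truncated SK3 apex libraries. The groups overlapped, the highest count was 23, and the log2 fold change of 2.64 ± 1.70 (SE) did not pass (edgeR adjusted p = 0.738). A gene's count cannot tell the native transcript from the insert, and truncated SK3 library 2 had no count at all, so the table does not show the construct in that library. Kcnn2, which encodes the related SK2 channel, was the more readily detected member at 31, 38.5, 39.7 and 29.5 CPM in control and 27.5, 25.6 and 27.8 CPM in truncated SK3. Every truncated SK3 library lay below every control library for Kcnn2, but the log2 difference of -0.36 ± 0.27 did not pass (edgeR adjusted p = 0.800). Kcnn1 (SK1) had values of 15.1 to 36.1 CPM in control and 13.6 to 16.6 CPM in truncated SK3, with overlap (log2 -0.80, edgeR adjusted p = 0.576). Kcnn4 stayed under 1 CPM in all 7 libraries, and Hcn2, the gene of the other construct's channel, spread from 6.43 to 63.4 CPM within the truncated SK3 group alone.

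Of 14968 genes tested with edgeR's quasi-likelihood test, 38 (0.254%) passed a Benjamini-Hochberg adjusted p of 0.05, here called genes. They comprised 15 genes (0.1%) that rose with truncated SK3 and 23 genes (0.154%) that fell. At an unadjusted p of 0.05 there were 1274 genes (8.51%). The median log2 fold change over all tested genes was 0.02, so both groups were centred on each other. In all 38 called genes the 7 libraries separated without overlap, which was the case for 11.8% of all tested genes (5.02% higher and 6.77% lower with truncated SK3). The called genes lay on 15 chromosomes. The mean of each gene's higher group had a median of 97.9 CPM over called genes and 26.2 CPM over all tested genes. In counts simulated with the fitted spread of each gene, alike in all groups, the test found 48.5% of genes changed by a fold of 4. It found 16.4% of those changed by a fold of 2, so smaller changes were mostly not detectable even there. The simulation held none of the wider spread between truncated SK3 libraries, so these are not rates for the real data.

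**Figure D1:**
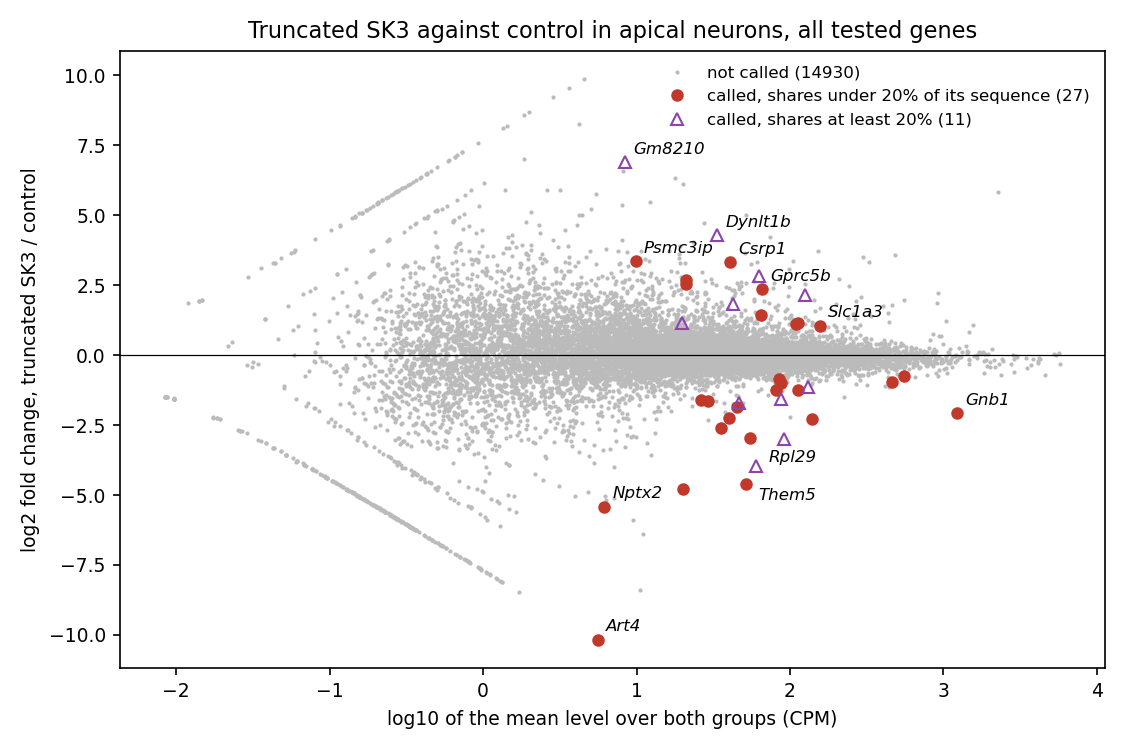
Log2 fold change of truncated SK3 against control in apical neurons (vertical axis) by the log10 of the mean level over both groups in CPM (horizontal axis), 1 point per tested gene. The 38 called genes (27 filled circles, 11 open triangles for genes that share at least 20% of their sequence with another gene) run from Gm8210 at 6.91 to Art4 at -10.17, a fitted value against 0 counts that is no measure of size, and uncalled genes of low level reach like values.

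The counts of several called genes are tied to those of near-identical copies, and this bears on how the largest changes are read. For each gene, the share of the 50-base stretches of its longest transcript that also occur in another gene's longest transcript was counted. Of the 38 called genes, 11 (28.9%) shared at least 20% of their stretches, against 5.63% of all tested genes with a known transcript. Of these, 6 rose (Gm8210, Dynlt1b, Rpl34-ps1, Eno1b, Hist3h2ba and Rnaset2a) and 5 fell (Rpl29, Rpl26, Ahcy, Rps18 and Tuba1c). The values of these genes are uncertain, because how the counting divided reads that match more than 1 place is not given in the sources used here. Rpl34 (6.93%) and Rpl35a (7.19%) fell below 20% by this count but have processed copies too.

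2 ribosomal protein genes and their processed pseudogenes show how little separates such copies. The coding part of Rpl34 differs from Rpl34-ps1 at 2 of 353 bases (99.4% identical), and that of Rpl29 differs from Gm8210 at 3 of 480 bases (99.4% identical). The 90-base stretches below come from GENCODE M21 transcripts (GRCm38), and the single capital in each marks the base at which the members of a pair differ. Rpl34 is read over 2 exons on the minus strand of chromosome 3 (130728841 to 130729129), Rpl34-ps1 on the plus strand of chromosome 6 (71124696 to 71124785). Rpl29 is read over 3 exons on the plus strand of chromosome 9 (106430004 to 106431082), Gm8210 on the plus strand of chromosome 1 (43189182 to 43189271).
Rpl34: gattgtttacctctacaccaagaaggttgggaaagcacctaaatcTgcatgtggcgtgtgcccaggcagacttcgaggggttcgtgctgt
Rpl34-ps1: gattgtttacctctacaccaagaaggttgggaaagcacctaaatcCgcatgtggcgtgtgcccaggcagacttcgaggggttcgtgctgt
Rpl29: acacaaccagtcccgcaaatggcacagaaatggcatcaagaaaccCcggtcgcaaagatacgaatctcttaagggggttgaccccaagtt
Gm8210: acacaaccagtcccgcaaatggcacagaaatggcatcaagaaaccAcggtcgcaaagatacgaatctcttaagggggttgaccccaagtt

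Within each pair the gene fell while the pseudogene rose. Rpl34, a protein of the large ribosomal subunit, was at 82.4, 95.4, 97.1 and 113 CPM in control and at 11.4, 9.55 and 16.7 CPM in truncated SK3 (log2 -2.95 ± 0.31, edgeR adjusted p = 1.1e-05). Rpl34-ps1, named here outside the naming rule, was at 34.0, 11.4, 7.25 and 9.17 CPM in control and at 103, 91.2 and 139 CPM in truncated SK3 (log2 2.84 ± 0.50, edgeR adjusted p = 0.0119, kept in 3 of the 7 fits that left out 1 library, up to 0.0692). Their sum was 104 to 123 CPM in control and 101 to 155 CPM in truncated SK3, so the groups overlapped once the copies were added. The second pair did not cancel in this way. Rpl29 was at 122, 107, 124 and 102 CPM in control and at 6.87, 6.54 and 8.16 CPM in truncated SK3, a level 15.8-fold lower (log2 -3.98 ± 0.21, edgeR adjusted p = 2.36e-10). Gm8210, also outside the naming rule, was at 0.0774, 0.309, 0.136 and 0 CPM in control and at 15.3, 15.2 and 19.4 CPM in truncated SK3 (log2 6.91 ± 0.62, edgeR adjusted p = 9.15e-07). The sum of Rpl29 and Gm8210 was 102 to 124 CPM in control and 21.7 to 27.5 CPM in truncated SK3, still without overlap, but other copies of Rpl29 have no line in the table and could not be added.

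The DN-HCN2 apex libraries stood at the truncated SK3 level for both pairs. Rpl34 ran from 11 to 15.6 CPM and Rpl29 from 7.96 to 9.04 CPM in those 4 libraries, and Gm8210 from 18.1 to 21.4 CPM. For these 3 genes the DN-HCN2 values lay with truncated SK3 and apart from control. Both constructs share the same 4 control libraries, and no label ties a library to an animal, litter or preparation. For these genes and others with that pattern (below), a difference in the animals or preparation of the control libraries and an effect of the constructs cannot be told apart.

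**Figure D2:**
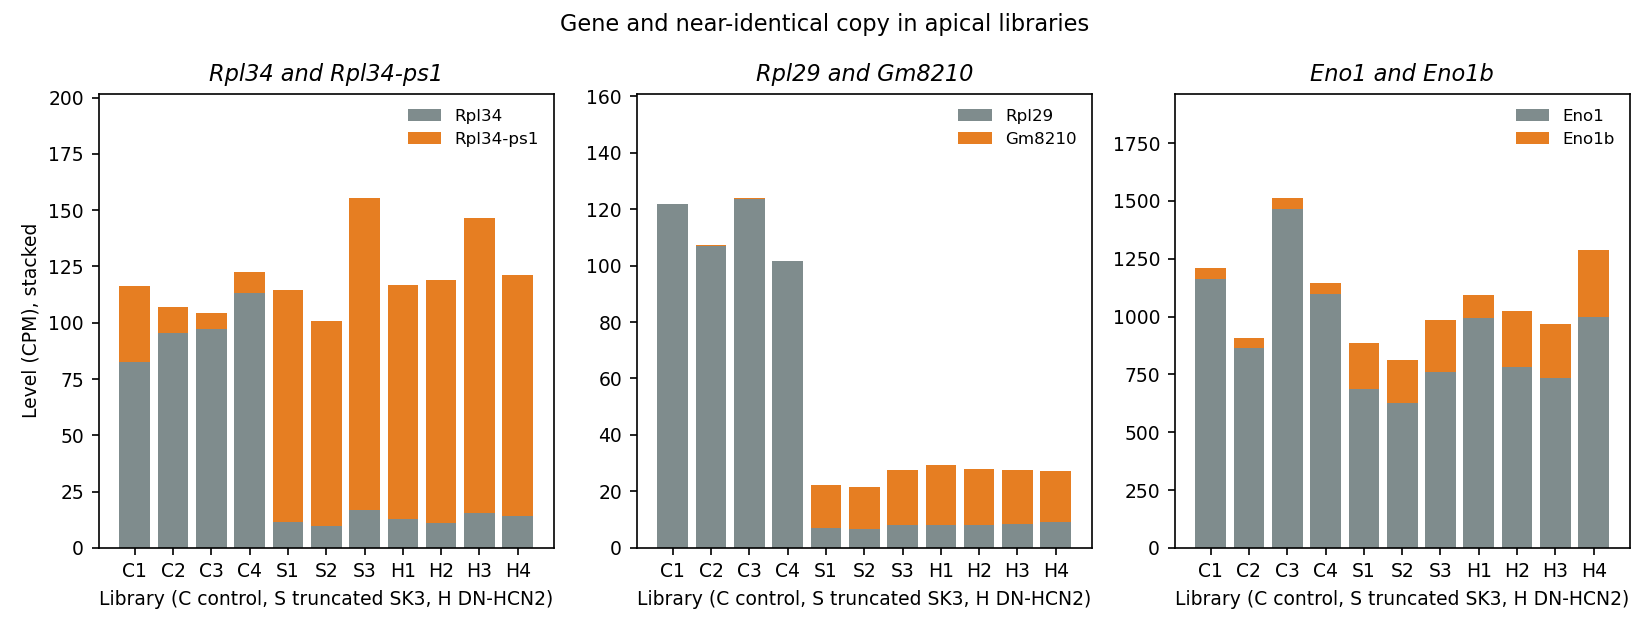
Stacked levels in CPM (vertical axis) of a gene and its near-identical copy in each apical library (C1 to C4 control, S1 to S3 truncated SK3, H1 to H4 DN-HCN2). The Rpl34 pair trades one member for the other at a sum of 101 to 155 CPM in control and truncated SK3, while the sum of the Rpl29 pair drops below 30 CPM in S1 to S3 and H1 to H4.

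Other genes with copies differed in how their copies lay. Eno1b, a copy of the glycolytic gene Eno1, was at 41.2 to 48.8 CPM in control and 187 to 225 CPM in truncated SK3 (log2 2.16, edgeR adjusted p = 0.000514). Eno1 itself was at 864 to 1464 CPM in control and 625 to 758 CPM in truncated SK3 and was not called, and the sum of Eno1 and Eno1b overlapped between groups at 906 to 1511 and 813 to 983 CPM. Dynlt1b, a light chain of the dynein motor, was at 2.48, 5.79, 2.71 and 2.02 CPM in control and at 80.1, 47.6 and 64.0 CPM in truncated SK3, a 19.7-fold rise (log2 4.30 ± 0.34, edgeR adjusted p = 1.91e-07). The 4 Dynlt1 copies summed to 38.6 to 49.5 CPM in control and 82.2 to 129 CPM in truncated SK3, so the sum remained apart. Within it Dynlt1f was at 7.97 to 10.5 CPM in control and 11.9 to 20.5 CPM in truncated SK3, and Dynlt1c at 23.0 to 33.5 CPM and 15.8 to 20.2 CPM. Ahcy, which clears S-adenosylhomocysteine after methylation reactions, was at 67.6 to 74.4 CPM in control and 18.9 to 25.7 CPM in truncated SK3 (log2 -1.70, edgeR adjusted p = 0.00119). With its copy Gm4737 the Ahcy sum was 90.9 to 115 CPM against 60.5 to 75.8 CPM. The lysosomal ribonuclease gene Rnaset2a rose by 1.14 on the log2 scale, but its call was lost in each of the 7 fits that left out 1 library (edgeR adjusted p up to 0.162). Its copy Rnaset2b was at 14.2 to 17.3 CPM in control and at 43.3, 10.6 and 11.9 CPM in truncated SK3. Tuba1c, named after its values were seen, was at 146 to 214 CPM in control and 71.2 to 88.8 CPM in truncated SK3, and its copies Tuba1a and Tuba1b were also at lower levels in each truncated SK3 library than in each control library.

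Ribosomal protein genes as a group did not fall with these members. Of 75 cytosolic ribosomal protein genes tested, 5 fell (Rpl26, Rpl29, Rpl34, Rpl35a and Rps18), 0 rose and 70 did not pass, against 0.254% of all tested genes that passed. The list's median log2 fold change was 0.18, and 59 of its 75 members lay above 0. In 14 of the 75 every truncated SK3 library was above every control library, against 5.02% of all tested genes. In 6 every truncated SK3 library was below, against 6.77%. Rpl26 was at 130 to 182 CPM in control and 17.2 to 26.8 CPM in truncated SK3 (log2 -2.98 ± 0.21, edgeR adjusted p = 2.57e-08). Rpl35a was at 62.7 to 76.6 CPM against 16.9 to 24.0 CPM, and Rps18 at 127 to 141 CPM against 36.9 to 50.9 CPM. Both of the latter calls were lost without truncated SK3 library 2, at an edgeR adjusted p of 0.0862 for Rpl35a and 0.0504 for Rps18. Each of these 5 genes has processed copies that share some of its stretches.

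Among called genes known from neuronal signalling or synapses, Gprc5b rose and Nptx2, Shank1, Car10, Gnb1 and Igsf21 fell. They were grouped after the calls were known, and the lists of synaptic genes are given below. Gprc5b (chromosome 7, 118972047 to 118995211, minus strand), an orphan receptor of the retinoic acid-inducible family, was at 20.7, 18.4, 23.1 and 22.4 CPM in control apex (21.2 ± 2.07, SD, n = 4) and at 123, 96.8 and 109 CPM in truncated SK3 apex (109 ± 13.0, SD, n = 3). Every truncated SK3 library lay far above every control library. The rise was 5.17-fold (log2 2.37 ± 0.21, edgeR adjusted p = 7.96e-07) and was kept in all 7 fits that left out 1 library. Nptx2 (chromosome 5, 144545902 to 144557478), a secreted pentraxin that clusters AMPA receptors and is induced by activity, was at 13.9, 18.6, 9.28 and 6.39 CPM in control and at 0.352, 0.215 and 0.252 CPM in truncated SK3. It was thus nearly absent from every truncated SK3 library, a level 44.1-fold lower (log2 -5.42 ± 0.87, edgeR adjusted p = 0.00365). Without truncated SK3 library 2 the adjusted p was 0.0504, at a log2 fold change of -5.27.

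Shank1, a scaffold of the postsynaptic density, was at 47.8, 48.2, 34.2 and 46.0 CPM in control and at 19.3, 9.91 and 13.3 CPM in truncated SK3 (log2 -1.64 ± 0.31, edgeR adjusted p = 0.019). The groups did not overlap, but the call was kept in only 2 of the 7 fits without 1 library (edgeR adjusted p up to 0.178). Car10, a carbonic anhydrase-related protein without catalytic activity that binds neurexins, was at 89.6, 41.0, 53.4 and 60.4 CPM in control and at 5.46, 5.31 and 19.0 CPM in truncated SK3. It was 6.15-fold lower (log2 -2.62 ± 0.37, edgeR adjusted p = 0.00108), and the log2 fold change was -3.50 without truncated SK3 library 3. With only the 7 libraries compared in the fit, the Car10 call was lost (edgeR adjusted p = 0.108). Gnb1, the beta subunit of many heterotrimeric G proteins, was at 1715 to 2248 CPM in control and at 247, 409 and 750 CPM in truncated SK3 (log2 -2.08, edgeR adjusted p = 0.0438). The Gnb1 call was kept in 1 of the 7 fits without 1 library, with an adjusted p of up to 0.252. Igsf21, a neurexin-binding adhesion molecule named after its values were seen, was at 84.8 to 135 CPM in control and 43.8 to 51.6 CPM in truncated SK3 (log2 -1.25, edgeR adjusted p = 0.0234, kept in 2 of 7 such fits).

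**Figure D3:**
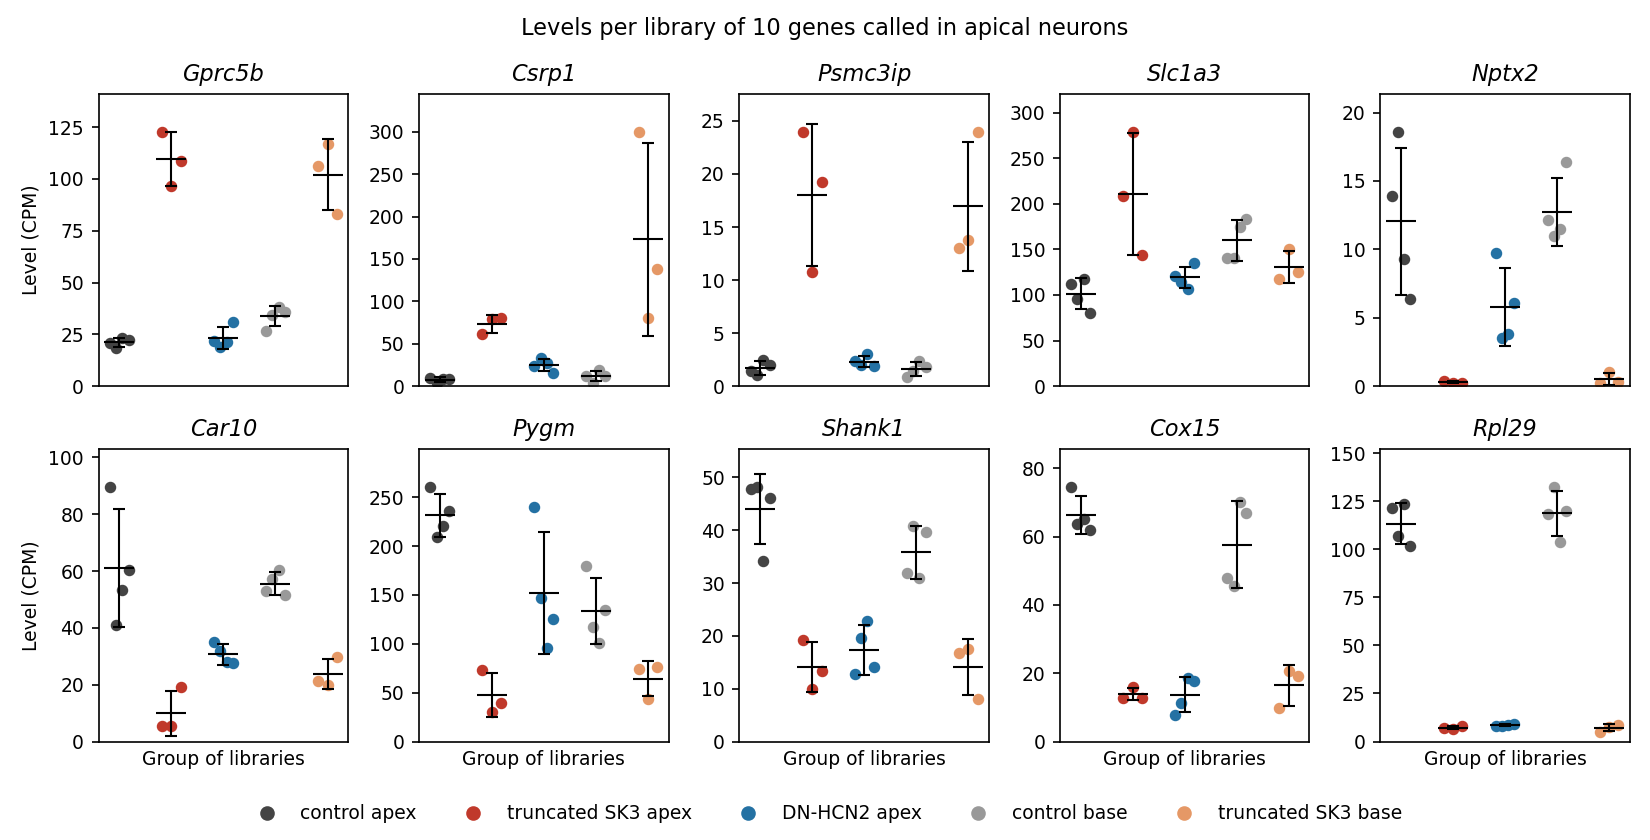
Levels in CPM (vertical axes, each from 0) of 10 called genes in the libraries of 5 groups, 1 point per library, with the mean as a horizontal bar and the SD as an error bar. For Gprc5b and Psmc3ip the DN-HCN2 apex libraries lie with control, for Rpl29, Cox15 and Shank1 they lie with truncated SK3, and for Nptx2, Car10 and Csrp1 their mean lies between those of the 2 groups.

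Several called genes belong to energy and lipid metabolism. Pygm (chromosome 19, 6384399 to 6398459), the muscle form of glycogen phosphorylase, was at 260, 210, 221 and 236 CPM in control and at 73.1, 29.9 and 39.5 CPM in truncated SK3, a level 4.88-fold lower (log2 -2.29 ± 0.33, edgeR adjusted p = 0.00119). Cox15 (chromosome 19, 43733254 to 43753000), which makes the heme A of cytochrome c oxidase, was at 74.5, 63.8, 65.1 and 62.0 CPM in control and at 12.9, 16.1 and 12.9 CPM in truncated SK3 (log2 -2.25 ± 0.33, edgeR adjusted p = 0.0012). Both falls were kept in all 7 fits without 1 library. Them5, an acyl-CoA thioesterase of mitochondria, was at 84.4 to 115 CPM in control and 2.15 to 5.47 CPM in truncated SK3 (24.1-fold lower, edgeR adjusted p = 0.0243), and its call was kept in 2 of those fits. None of the 60 respiratory chain subunit genes tested passed, and their median log2 fold change was 0.04.

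The peroxisomal genes Pex19, a carrier for membrane proteins, and Acaa1a, a thiolase of fatty acid breakdown, were named after their values were seen. Pex19 was at 143 to 190 CPM in control and at 62.2 to 75.5 CPM in truncated SK3 (log2 -1.23, edgeR adjusted p = 0.00822). Acaa1a was at 101 to 139 CPM against 41.8 to 67.8 CPM (log2 -0.98, edgeR adjusted p = 0.0438). Without 1 library the Pex19 call was kept in 5 of 7 fits and the Acaa1a call in 2 (edgeR adjusted p up to 0.0884 and 0.319). 2 enzymes of detoxification and sugar metabolism rose. Gsta4, a glutathione transferase for lipid aldehydes, was at 32.0, 30.9, 39.5 and 38.2 CPM in control and at 73.8, 91.9 and 119 CPM in truncated SK3 (log2 1.43 ± 0.23, edgeR adjusted p = 0.00456). Without truncated SK3 library 3 the Gsta4 adjusted p was 0.0565. Cryl1, a crystallin that works as a dehydrogenase of sugar acids, was at 3.87 to 6.91 CPM in control and at 15.1, 50.1 and 43.8 CPM in truncated SK3 (log2 2.69, edgeR adjusted p = 0.0211, kept in 1 of 7 fits).

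Genes of the cytoskeleton, the nucleus and the cell surface made up most of the others. Csrp1 (chromosome 1, 135720061 to 135752232), a LIM-domain protein of actin bundles, was at 10.1, 3.24, 8 and 7.92 CPM in control and at 61.5, 79.5 and 80.2 CPM in truncated SK3, a 10.1-fold rise (log2 3.33 ± 0.52, edgeR adjusted p = 0.00303). Psmc3ip (chromosome 11, 101091823 to 101095436, minus strand), known as a cofactor of meiotic recombination, was at 1.47, 1.00, 2.51 and 2.02 CPM in control and at 23.9, 10.8 and 19.3 CPM in truncated SK3, a 10.3-fold rise (log2 3.35 ± 0.55, edgeR adjusted p = 0.00456). Csrp1 and Psmc3ip stayed called in all 7 fits without 1 library. Hist3h2ba, a histone H2B gene, rose 3.54-fold (14.5 to 24.8 CPM against 56.4 to 73.4 CPM).

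Pttg1, the securin that keeps sister chromatids from separating early, was at 31.5 to 49.6 CPM in control and at 2.29, 0.144 and 1.85 CPM in truncated SK3 (log2 -4.77, edgeR adjusted p = 0.0438). Its groups lay far apart, yet the call was lost in each of the 7 fits without 1 library (edgeR adjusted p up to 0.265). It was the only called gene among 27 tested genes of cell division. Art4, a surface ADP-ribosyltransferase, had 93 to 231 counts in the control libraries and 0 counts in all 3 truncated SK3 libraries. Against a floor of 3 counts over the truncated SK3 group its level was at least 138-fold lower (edgeR adjusted p = 0.027, kept in 1 of 7 fits). Tmod4, a tropomodulin that caps actin filaments, was at 28.3 to 54.5 CPM in control and 10.9 to 15.4 CPM in truncated SK3 (edgeR adjusted p = 0.0395, kept in 1 of 7 fits). Fam129b was at 2.85 to 11.6 CPM in control and 16.2 to 70.5 CPM in truncated SK3 (edgeR adjusted p = 0.0311). Fam3c, a secreted cytokine-like protein, was at 50.7 to 88.9 CPM and 124 to 176 CPM (edgeR adjusted p = 0.0136). Both rises were kept in 3 of 7 fits, and without truncated SK3 library 2 Fam129b was at log2 1.60 (edgeR adjusted p = 0.437). Gm2a, the lysosomal activator of ganglioside breakdown, was at 59.1 to 87.4 CPM and 100.5 to 191 CPM (log2 1.14, edgeR adjusted p = 0.0438, kept in 1 of 7 fits). 7 called falls lay outside the naming rule, with log2 fold changes from -1.25 to -0.74: Igsf21, Pex19 and Acaa1a (above), the alpha tubulin gene Tuba1c, the glutathione-binding protein gene Lancl1, the signal recognition particle gene Srp9 and the proton pump gene Atp6v0e2.

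Just outside the threshold lay Reep1 (log2 -0.68, edgeR adjusted p = 0.0516), which shapes the endoplasmic reticulum, and Sdc4 (log2 1.76, edgeR adjusted p = 0.0520), a heparan sulfate proteoglycan. Just inside it lay Gnb1, Pttg1, Gm2a, Tuba1c and Acaa1a, all at an adjusted p of 0.0438.

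The promoters of Gprc5b and Psmc3ip are shown because both genes rose in the apex and in the base and were near control in DN-HCN2 apex (below). They are the bases before the start in RefSeq (GRCm38.p6), 250 for Gprc5b (chr7:118995212-118995461, minus strand) and 249 for Psmc3ip (chr11:101095437-101095685, minus strand, 1 base of an annotated exon left out). Capitals mark matches of the letters GGGCGG (GC box) in Gprc5b and TCAAGGTCA (estrogen-related receptor element) in Psmc3ip, searched on both strands.
Gprc5b: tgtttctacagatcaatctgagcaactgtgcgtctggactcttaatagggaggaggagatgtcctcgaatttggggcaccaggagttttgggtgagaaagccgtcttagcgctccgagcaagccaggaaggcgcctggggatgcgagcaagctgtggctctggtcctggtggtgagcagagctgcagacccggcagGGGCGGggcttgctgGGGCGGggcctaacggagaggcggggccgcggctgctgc
Psmc3ip: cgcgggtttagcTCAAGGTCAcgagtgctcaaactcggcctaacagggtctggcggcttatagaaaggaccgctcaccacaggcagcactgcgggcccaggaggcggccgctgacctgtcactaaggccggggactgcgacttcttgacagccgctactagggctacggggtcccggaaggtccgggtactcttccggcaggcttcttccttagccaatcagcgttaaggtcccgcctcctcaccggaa
GC boxes stood in the promoters of 5 of the 8 called rises with a RefSeq promoter (62.5%), of 10 of the 19 called falls (52.6%) and of 57.3% of all tested genes. The estrogen-related receptor letters stood in 0.256% of all tested promoters. The activity-linked cAMP response element TGACGTCA stood in 0 of the 8 rises, 1 of the 19 falls and 2.64% of all, and its part TGACG, which the longer letters contain, in 1, 5 and 25.6%. AP-1 (TGANTCA) was found in 0 of the rises, 1 of the falls and 4.52% of all. The E-box (CACGTG) was found in 1 of each set and in 8.19% of all, the TATA box (TATAAA) in 1 of each set and in 6.66%. The early growth response letters GCGTGGGCG were in none of the 27 called promoters and in 0.996% of all.

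Slc1a3, the glutamate transporter of glia and cochlear supporting cells, rose in the truncated SK3 libraries together with higher levels of supporting cell markers. It was at 112, 95.4, 118 and 80.1 CPM in control and at 209, 279 and 144 CPM in truncated SK3 (log2 1.06 ± 0.22, edgeR adjusted p = 0.0362). The summed level of 18 markers of supporting cells and otic epithelium was 738, 1432, 2930 and 984 CPM in control and 3555, 4712 and 4922 CPM in truncated SK3, without overlap. Of these 18 markers 15 lay above a log2 fold change of 0, their median was 1.22 and Slc1a3 was the only one called. None of the 18 was at 0 throughout a group. Gjb2, a gap junction connexin of supporting cells named after its values were seen, was at 13.2, 56.3, 127 and 40.8 CPM in control and at 70.5, 1104 and 614 CPM in truncated SK3 (edgeR adjusted p = 0.369). The sum of the 18 markers was 1534 to 11051 CPM in DN-HCN2 apex. In the base it was 462 to 728 CPM in control and 406 to 748 CPM in truncated SK3. In such bulk libraries, more cells of a type and more RNA per cell cannot be told apart.

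When the summed supporting cell level was added to the fit, an alternative chosen after seeing the data, 17 genes were called, 6 of them higher, all among the 38. Slc1a3, which is itself part of that sum, was then not called (log2 0.82, edgeR adjusted p = 0.750). Because the sum did not overlap between truncated SK3 and control apex, this fit cannot cleanly tell its level from the group. A lost call is therefore only a description. The log2 fold changes of Cryl1 and Gm2a dropped to 1.71 and 0.76 (edgeR adjusted p = 0.741 and 0.836), and that of Shank1 lay at -1.19 (0.490). Psmc3ip (2.94, 0.215), Gsta4 (1.25, 0.233), Rpl35a (-1.58, 0.227), Them5 (-4.16, 0.259), Fam129b (2.74, 0.289), Fam3c (1.13, 0.227) and Tmod4 (-1.56, 0.333) also lost their calls. So did Art4, Pttg1, Rnaset2a, Rpl34-ps1, Acaa1a, Pex19, Lancl1, Srp9, Atp6v0e2 and Tuba1c. Gprc5b (log2 2.27, adjusted p = 0.000138), Nptx2 (-5.88, 0.0111) and Car10 (-2.69, 0.0118) remained called in that edgeR fit. The Slc1a3 call was kept in 1 of the 7 fits without 1 library, that without truncated SK3 library 3, and its adjusted p was highest without library 2 (log2 0.81, edgeR adjusted p = 0.332). The part of supporting cell material in the other calls was not tested.

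Other cell type markers varied library by library. Schwann and satellite glia markers summed to 12638 to 20262 CPM in control and 13227 to 22689 CPM in truncated SK3. Fibroblast markers reached 4041 CPM in truncated SK3 library 1, against 563 to 1528 CPM in control. Markers of endothelium, pericytes and blood reached 4176 CPM in truncated SK3 library 3, against 23.0 to 397 CPM in control. Macrophage markers were at 54.3 to 69.9 CPM in 3 control libraries, at 565 CPM in control library 4 and at 13.1 to 65.4 CPM in truncated SK3. Hair cell markers overlapped (1992 to 3388 and 1573 to 3391 CPM), as did type I subtype markers (6438 to 7154 and 6104 to 8320 CPM) and type II markers (325 to 618 and 395 to 850 CPM). Oligodendrocyte and astrocyte markers, a list that also holds Slc1a3, were at 767 to 1174 and 1108 to 1718 CPM, with Olig2 at 0 in both groups and Opalin and Olig1 at 0 in truncated SK3. The number of calls moved with single truncated SK3 libraries: 62 genes were called without library 1, 19 without library 2 and 22 without library 3. It also fell to 23, 25 and 24 without control libraries 1, 2 and 3.

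**Figure D4:**
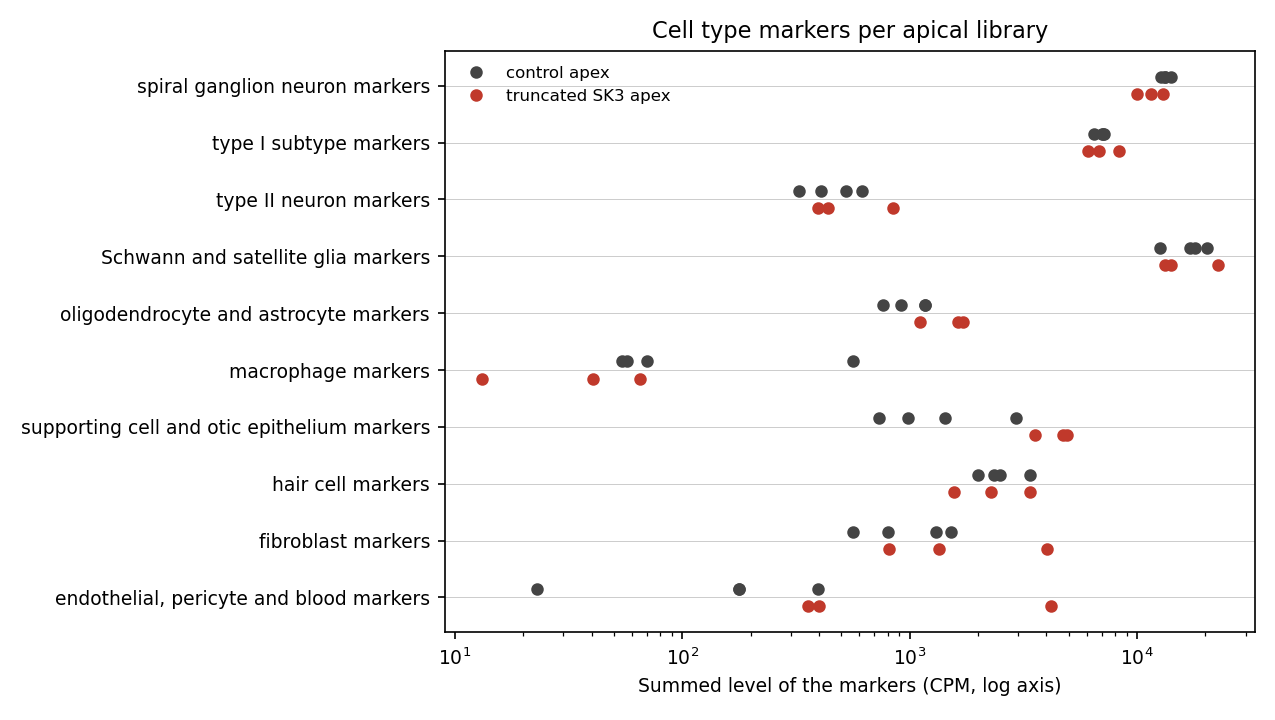
Summed level of each list of cell type markers in CPM (horizontal log axis) in the 4 control (dark grey) and 3 truncated SK3 (red) apical libraries, 1 point per library. Supporting cell markers are the list whose groups do not overlap, with control at 738 to 2930 CPM and truncated SK3 at 3555 to 4922 CPM.

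Gene lists are described by counts beside the 0.254% of all tested genes that were called, a share at which most lists of these sizes hold no call. Immediate early genes, which neurons switch on within minutes of firing, had 0 calls among 26 tested members, with 21 above a log2 fold change of 0 and a median of 0.48, beside 51.8% and 0.02 for all tested genes. Fos, named after its values were seen, was at 968, 1295, 1636 and 1045 CPM in control and at 1904, 1995 and 756 CPM in truncated SK3, with overlap (edgeR adjusted p = 0.837). Npas4, chosen likewise, was at 0.695 to 3.20 CPM in control and at 0 in the 3 truncated SK3 libraries (edgeR adjusted p = 0.284). Late activity-regulated genes had 1 call among 21 tested, the fall of Nptx2, and a median of 0.29. Bdnf, a neurotrophin of the same list named after its values were seen, spread from 0.407 to 10.3 CPM in control and from 1.32 to 24.4 CPM in truncated SK3.

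None of 9 calcium-activated potassium channel genes, 32 voltage-gated and 15 inward rectifier and leak potassium channel genes, 5 HCN channel genes, 16 sodium and 18 calcium channel genes passed, which at 0.254% of all tested genes is the background. Their medians were -0.36, -0.15, -0.54, -0.05, 0.15 and -0.32 on the log2 scale. Calcium and CREB signalling genes (32 tested, median 0.07) and calcium-binding proteins and pumps (28, 0.02) held no call either.

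Among synaptic lists, glutamate receptor and postsynaptic density genes had 1 call of 38, Shank1, with a median of 0.01. Synaptic vesicle and SNARE genes (40 tested, median -0.20), active zone genes (21, -0.12), receptors for GABA, glycine, acetylcholine and purines (27, -0.29), synaptic adhesion genes (55, -0.08), cadherins and protocadherins (31, 0.07), axon guidance genes (63, -0.07) and neurotrophins with their receptors (11, 0.48) had 0 calls, as most lists of such sizes would at 0.254%. Cytoskeletal and axonal transport genes also had 0 calls, but 25 of their 31 members lay below 0, with a median of -0.35. In 13 of these 31 every truncated SK3 library was below every control library, against 6.77% of all tested genes. Spiral ganglion neuron markers had 0 calls of 20, a median of -0.08 and 6 such members. Synaptic vesicle and SNARE genes had 10 such members of 40, with 27 of the 40 below 0, and synaptic adhesion genes had 8 of 55. Members that lay higher without overlap numbered 1 and 4 in these lists, in that order. The other synaptic, adhesion and guidance lists named here had 1 to 7 members that lay lower without overlap.

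Lists of cell state also stood near the background of 0.254%. Stress and protein folding genes (29 tested, median 0.21), interferon response genes (30, 0.43), p53 targets and cell death genes (18, 0.07), proteasome subunit genes (31, -0.07) and cholesterol synthesis genes (23, -0.22) had 0 calls. Cell division genes had the single call of Pttg1 at a median of -0.15. The medians of the marker lists were -0.01 for type I subtypes, -0.42 for type II neurons, 0.16 for Schwann and satellite glia, 0.18 for oligodendrocytes and astrocytes, -2.19 for macrophages, 0.07 for hair cells, 0.89 for fibroblasts and 0.40 for endothelium, pericytes and blood.

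The same contrast in the base of the cochlea, in 3 truncated SK3 and 4 control libraries that the apical contrast did not use, gave the same direction for 36 of the 38 genes. Over all tested genes, 58.6% had the same sign in both regions. The exceptions were Slc1a3 (base log2 -0.28) and Gm2a (base log2 -0.14). In the base 22 genes (0.147%) were called, 11 higher (0.0735%) and 11 lower (0.0735%), and 16 genes were called in both regions, which is 42.1% of the apical and 72.7% of the basal calls. Of these 16, 8 shared at least 20% of their stretches with another gene and 8 did not, the latter with Rpl34 and Rpl35a among them. No label says whether apical and basal libraries came from different animals, and the fit shared the spread per gene over all 21 libraries. The contrasts in apex and base are therefore not shown to be independent.

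Gprc5b was at 26.8, 34.5, 38.2 and 35.6 CPM in control base and at 106, 117 and 83.1 CPM in truncated SK3 base (log2 1.59 ± 0.20, edgeR adjusted p = 0.000243). Nptx2 was at 11 to 16.4 CPM and at 0.204, 1.05 and 0.290 CPM there (log2 -4.58, edgeR adjusted p = 0.0126), a call lost without truncated SK3 base library 1 or 3 (edgeR adjusted p = 0.159 and 0.140), while the log2 fold change was -5.64 without library 2. Csrp1 was at 4.03 to 19.4 CPM and at 300.2, 80.9 and 139 CPM (log2 3.88, edgeR adjusted p = 0.000651). Without truncated SK3 base library 1, its highest, the Csrp1 log2 fold change in the base was 3.22, and with only the libraries compared its call was lost (edgeR adjusted p = 0.130). In each of these genes the base libraries separated as the apical ones had. Psmc3ip was at 0.872 to 2.37 CPM in control base and 13.1 to 24.0 CPM in truncated SK3 base (log2 3.37, edgeR adjusted p = 0.00664), with an adjusted p of 0.0587 without truncated SK3 base library 3. Cox15 was at 45.6 to 70.2 CPM and 9.69 to 20.6 CPM (log2 -1.81, edgeR adjusted p = 0.0126), a call lost without truncated SK3 base library 1 or 3 (edgeR adjusted p = 0.151 and 0.0587) or control base library 3 or 4 (0.0512 and 0.0502), and with only the libraries compared (0.0716). Car10, Pygm and Tmod4 had smaller values there, at log2 -1.23, -1.05 and -0.52, and did not pass.

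Whether an effect differed between apex and base was tested as an interaction. edgeR called 0 genes (smallest adjusted p 0.704), with 545 genes (3.64%) at an unadjusted p under 0.05, while DESeq2 called 21 and limma-voom 0. Of the 38 apical calls 13 had an unadjusted interaction p under 0.05, among them Slc1a3 (0.000285), Gm2a (0.0012), Art4 (0.00136), Gsta4 (0.00361) and Car10 (0.00903). These genes were chosen by their apical values, which enter the interaction, so that count is a description. No call is therefore shown by edgeR to be particular to the apex.

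**Figure D5:**
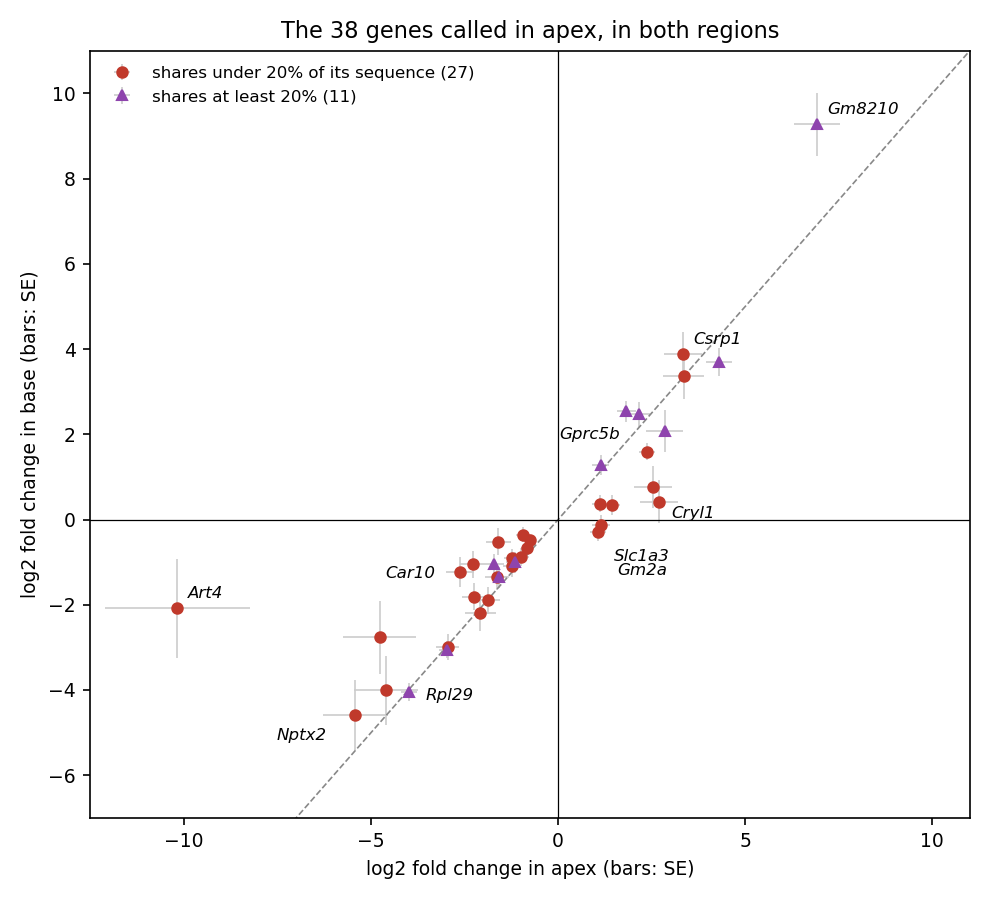
Log2 fold change of truncated SK3 against control in the base (vertical axis) by that in the apex (horizontal axis) for the 38 genes called in the apex, with bars of 1 SE and the line of equal change dashed. 36 genes lie in the quadrants of equal sign, and Slc1a3 and Gm2a lie just below 0 in the base.

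Truncated SK3 was then set directly against DN-HCN2 in the apex (4 libraries), since both constructs share the same controls. 3 genes (0.02%) were called, 2 higher with truncated SK3 (0.0134%) and 1 lower (0.00668%). Gprc5b was at 21.6, 18.8, 21.5 and 30.8 CPM in DN-HCN2 apex, which overlapped control, and was 2.24 ± 0.21 higher in truncated SK3 on the log2 scale (edgeR adjusted p = 8.13e-06). In DN-HCN2 base, by contrast, Gprc5b was at 12.5 to 17.9 CPM, below the 26.8 to 38.2 CPM of control base. Map3k1, a kinase upstream of JNK, was at 105, 98.2 and 78.8 CPM in truncated SK3, at 30.8 to 59.8 CPM in DN-HCN2 and at 112 to 155 CPM in control (log2 1.19 against DN-HCN2, edgeR adjusted p = 0.0389). The predicted gene Gm4184 was at 0.440 to 1.43 CPM in truncated SK3, at 8.46 to 26.8 CPM in DN-HCN2 and at 0.542 to 1.39 CPM in control (log2 -4.19 against DN-HCN2, edgeR adjusted p = 0.0354). Map3k1 and Gm4184 differed from DN-HCN2 but were not called against control. With only the libraries of the 2 groups in the fit, the test called 0 genes, and Gprc5b had an adjusted p of 0.0857.

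Other apical calls differed in where the DN-HCN2 libraries lay. Psmc3ip was at 1.94 to 2.99 CPM, Pex19 at 91.3 to 167 CPM and Pygm at 96.1 to 240.5 CPM in DN-HCN2 apex, each above or below every truncated SK3 library, with log2 differences of 2.96, -1.01 and -1.68 from it that did not pass (edgeR adjusted p = 0.0715, 0.137 and 0.0715). Nptx2, at 3.54 to 9.73 CPM, and Car10, at 27.6 to 35.1 CPM, also stayed above every truncated SK3 library (edgeR adjusted p = 0.0715 and 0.161). In contrast, Cox15 was at 7.64 to 18.5 CPM in DN-HCN2, Shank1 at 12.8 to 22.9 CPM, Them5 at 0 to 5.45 CPM, Pttg1 at 1.42 to 3.40 CPM and Dynlt1b at 57.3 to 105 CPM. For these 5 genes the DN-HCN2 range overlapped that of truncated SK3 and lay apart from control. The same held for Gnb1 (463 to 1295 CPM in DN-HCN2), Rpl26, Rps18, Rpl35a, Ahcy, Eno1b, Rnaset2a, Rpl34-ps1, Srp9 and Acaa1a. Car10, Csrp1, Gsta4, Hist3h2ba and Atp6v0e2 overlapped neither group, but their DN-HCN2 values lay to the truncated SK3 side of every control library. Csrp1 was at 15.5 to 32.7 CPM, Gsta4 at 53.5 to 71.4 CPM and Hist3h2ba at 74.2 to 96.1 CPM in DN-HCN2. Atp6v0e2 was at 488 to 581 CPM there, and Hist3h2ba lay above every truncated SK3 library as well. For these genes too, the shared control libraries set the limit given above. Of the 38 genes, 19 had an unadjusted p under 0.05 in the direct test, against 8.42% of all tested genes. They were 1 of the 11 that share at least 20% of their stretches and 18 of the 27 below that. That test used the same 3 truncated SK3 libraries that chose the genes, so these counts describe them and support nothing further.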

How the data were processed

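The authors deposited 1 table of raw read counts, whole numbers per gene symbol and library that were not normalized. The submitters' processing notes list Trimmomatic, HISAT2 and DESeq2, and GRCm38 and mm10 as builds, while the counter and annotation are not given in the sources used here. The 21 libraries held 10411634 to 15138780 counts each.

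Genes were filtered with filterByExpr, scaled with TMM factors and fitted with edgeR 4.0.16 (R 4.3.3, robust quasi-likelihood, all 21 libraries, 1 mean for each of 6 groups). P-values were adjusted by Benjamini-Hochberg over 14968 genes, at a threshold of 0.05. The SE of a log2 fold change follows from its F statistic. The members and the 37 gene lists were chosen with earlier results of these data known.

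Named genes were the SK genes and Hcn2, the 15 largest rises and falls whose higher group averaged 10 CPM or more (predicted genes and pseudogenes left out), up to 4 called members of each list, and, for the tests of region and of the other construct, the 5 smallest p among called genes. Coordinates and sequence sharing are from GENCODE M21, which held 96.6% of tested symbols. Alternatives used DESeq2 1.42.0 and limma 3.58.1, other filters and scalings, and each library left out. In simulated libraries, the apical test found 2.99% of genes given a 1.5-fold change, 16.4% at 2-fold and 48.5% at 4-fold, and made 0 calls among 14429 genes left unchanged. The simulated counts followed the fitted model, with 1 mean per gene over all libraries before the changes. The 0 calls are therefore no error rate for the real data. Whether the replicate numbers pair the libraries could not be decided (closing section), and the main fit used no pairing. Figures used matplotlib 3.10.9.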

Additional observations from a re-analysis of the deposited data

Results flagged for a closer look

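In groups of 4 libraries, 10 of 145 sets of values had 1 library far from the other 3, and chance alone gives about 1 in 20 such sets. Among called genes in control apex, Shank1 was low in library 3 at 34.2 CPM, Rps18 was high in library 4 at 141 CPM, and Rpl34-ps1 was high in library 1 at 34.0 CPM. The macrophage markers summed to 565 CPM in control apex library 4. In DN-HCN2 apex, Igsf21 was high in library 1 at 106 CPM, Rpl34-ps1 in library 3 at 131 CPM and Kcnn4 in library 2 at 0.953 CPM. In control base, Fam129b was high in library 3 at 12.8 CPM, Kcnn4 in library 3 at 0.543 CPM and Gm8210 in library 4 at 0.0704 CPM.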

How the results depend on the processing

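The 38 apical calls became 39 with RLE size factors, 35 without a filter on low counts and 42 with at least 10 CPM in 3 libraries. DESeq2 called 156 (77 higher, 79 lower) and limma-voom 121 (76 higher, 45 lower), against 15 higher and 23 lower with edgeR. When genes that share at least 20% of their stretches were left out, 23 genes were called. With supporting cell markers as a covariate, 17 were called. Leaving out 1 library gave 19 to 62. With only the 7 libraries compared, 28 were called, of which 23 were among the 38. Of the genes named in the report, Car10, Fam129b, Fam3c, Gm2a, Gnb1, Rnaset2a, Rpl34-ps1, Shank1, Slc1a3, Tmod4, Acaa1a, Lancl1, Srp9, Atp6v0e2 and Tuba1c lost their call there. Of the 38, 14 were kept in all 7 fits without 1 library, 15 in every other setting that tested them, and 12 in both. The 22 basal calls became 80 with DESeq2, 43 with limma-voom and 10 without genes that share sequence, and 11 to 22 without 1 library. The 0 interaction calls became 21 with DESeq2. The 3 calls against DN-HCN2 became 93 with DESeq2, 1 with limma-voom, 0 with only the libraries compared, 5 with supporting cell markers as a covariate, and 1 to 10 without 1 library. The cause was not tested. Deviations of apical libraries with the same replicate number correlated at -0.04, 0.17 and -0.03, and those with different numbers at -0.16 to 0.16. Same-number values were 0.15, 0.03 and -0.09 in the base. Between DN-HCN2 apex and truncated SK3 apex they were 0.03, -0.13 and 0.28. So few values cannot decide whether the numbers pair the libraries. With the replicate number as a block, 32 genes were called in the apex, 18 in the base, 0 for the interaction and 1 against DN-HCN2. With 3 libraries in a group and 48.5% recovery of changes by a fold of 4, a gene that was not called is not shown to be unchanged.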
